A study of Mus musculus with 7 samples.

Results

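The aminoacyl-tRNA synthetases are the enzymes that load each amino acid onto its tRNA, and their genes were followed here in LLC1 cells in which the RNA helicase gene Ddx54 was knocked down. The members were the 38 gene symbols of the family found among the 24419 genes of the count table, 22 of them cytosolic and 16 mitochondrial. The cytosolic set holds 20 synthetase genes and the scaffold genes Aimp1 and Aimp2, and the mitochondrial set holds the symbols that end in 2, Aimp2 aside. LLC1 is a Lewis lung carcinoma line of the mouse, grown in culture in serum-containing medium. The Ddx54 knockdown group had 3 libraries of cells carrying an shRNA, and the wild-type group had 4 libraries of cells labelled as wild type for Ddx54. No control construct is named for the wild-type cells, and the labels say neither whether the knockdown cells are 1 clone or a pool nor whether replicates are separate cultures. The p-values therefore measure the spread between these libraries, which may be technical.

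Each synthetase activates its amino acid with ATP and transfers it to the matching tRNA, and the family falls into class I and class II by the fold of the catalytic domain. In the mammalian cytosol several of the enzymes are held together in the multisynthetase complex by the scaffold proteins that Aimp1, Aimp2 and Eef1e1 encode, while the others act outside it. Mitochondria import a separate set made from nuclear genes, except that Gars and Kars each serve both compartments, and they have no glutaminyl enzyme. When charged tRNA runs short, the kinase encoded by Eif2ak4 senses uncharged tRNA, translation of the transcription factor Atf4 rises, and Atf4 acts on genes of amino acid supply, many cytosolic synthetases among them.

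Ddx54 itself was at 45.9, 39.2 and 45.8 CPM in the knockdown libraries, against 80.4, 82.5, 78.6 and 83.2 CPM in the wild-type libraries. No knockdown library reached the lowest wild-type value (log2 fold change, knockdown over wild-type, -0.90, SE 0.10, adjusted p = 6.55e-09, edgeR quasi-likelihood test with Benjamini-Hochberg adjustment). Over the 7 libraries the exact permutation p, two-sided, was 0.0286, the smallest it can give. CPM here is the usual library-scaled count, corrected by the TMM factor of the library. The libraries held 14987324 to 17702932 counts in knockdown and 15293346 to 18673395 in wild-type. Rn45s, the ribosomal RNA precursor, took 7.96% to 9.07% of counts in knockdown and 10.7% to 12.5% in wild-type. All 6 leukocyte markers were at no more than 4 counts in any library, and the summed level of the endothelial markers was 0.71 to 1.19 CPM in knockdown and 1.07 to 3.19 CPM in wild-type. Of 5 epithelial markers, Krt8 and Krt18 were well detected while Epcam and Cdh1 had at most 3 counts in any library. The summed epithelial level, most of it Krt18, was 148 to 168 CPM in knockdown and 238 to 248 CPM in wild-type. By the same edgeR test Krt18 fell (log2 fold change -0.72, adjusted p = 4.62e-10). Krt19 also fell, at means of 1.08 CPM in knockdown and 4.39 CPM in wild-type (-2.03, adjusted p = 0.000811). Krt8 did not fall, at means of 23.6 CPM in knockdown and 20.3 CPM in wild-type (0.22, adjusted p = 0.373). The summed level of the 5 fibroblast markers was 28.2 to 30.8 CPM in knockdown and 21.6 to 27.9 CPM in wild-type. The part of these markers in the results below was not tested.

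Most cytosolic synthetase genes were lower in knockdown, while 1 mitochondrial gene was lower and 4 were higher. Among the 22 cytosolic members, 14 fell, 2 rose and 6 did not pass the threshold of an adjusted p under 0.05. Over all 11594 tested genes, 15.3% fell and 14.1% rose, together 29.4%. The median log2 fold change was -0.27 over the cytosolic members, against 0.001 over all tested genes. Of the 16 mitochondrial members, 1 fell, 4 rose and 11 did not pass, with a median of -0.11, which was 0.049 without wild-type replicate 1 and -0.19 without knockdown replicate 1. Counted in either direction, the share of mitochondrial members past the threshold (6.25% lower and 25% higher) was near the 29.4% of all tested genes. All 38 members passed the filter on low counts. The summed level of the cytosolic members was 5493 to 5665 CPM in knockdown, against 6662 to 7379 CPM in wild-type, and the groups did not overlap. For the mitochondrial members the sum was 414 to 442 CPM in knockdown, against 408 to 434 CPM in wild-type, so that the ranges overlapped. These are shares of polyadenylated RNA in bulk cultures, in which fewer cells with a transcript and less of it per cell cannot be told apart. Exons of 15 of the 38 members share bases with a gene annotated on the other strand, and many but not all of these partners are named below. The longest such overlap was 2034 bases, of Iars2 with Rab3gap2, which did not pass (log2 fold change -0.090, adjusted p = 0.71). With Rn45s removed before scaling, 15 cytosolic members were lower and 2 higher, and 1 mitochondrial member was lower and 4 higher.

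**Figure D1:**
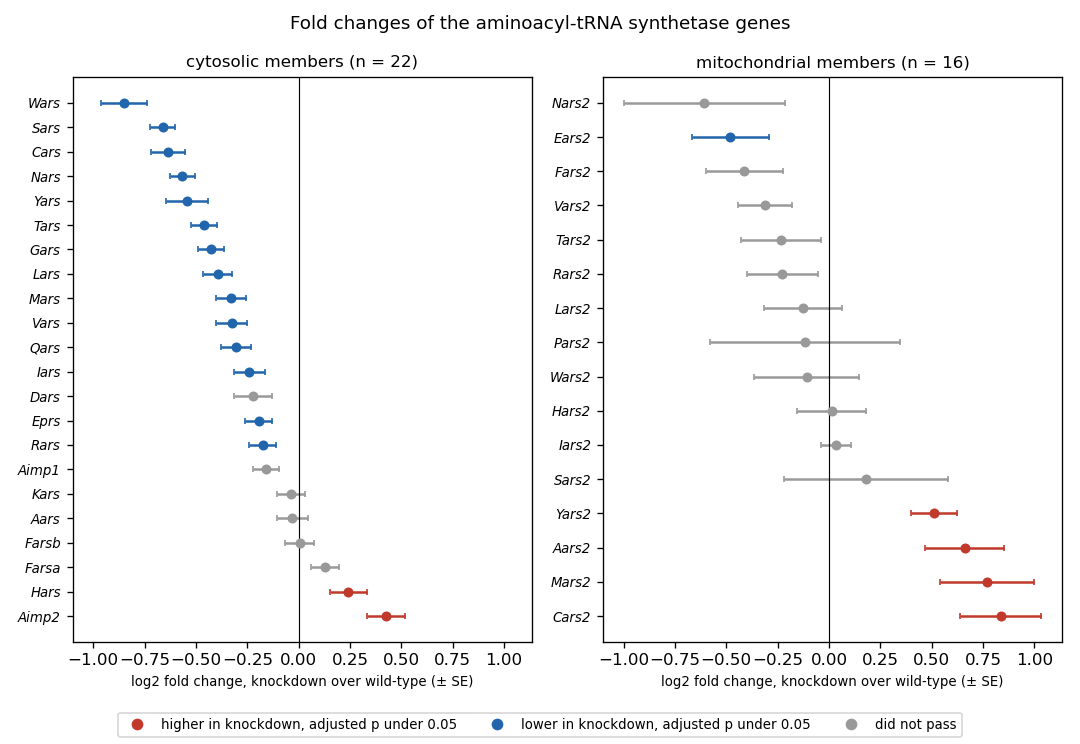
Log2 fold change of each member, knockdown over wild-type, with bars of ± 1 SE, for the 22 cytosolic members on the left and the 16 mitochondrial members on the right, coloured by call. The 14 cytosolic members that fell run from -0.85 to -0.18 log2 units, while 4 mitochondrial members lie at 0.51 to 0.84 with a call of higher.

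The starts of 29 of the 38 members were matched in the RefSeq promoter table of GRCm38.p6, 15 cytosolic and 14 mitochondrial, in windows of 300 bases that run from 250 bases before the annotated start to 50 after it. The windows were searched on both strands for TGATGNAA, the core of the element bound by Atf4 with C/EBP partners. It was present in at least 1 window of 5 of the 15 cytosolic members (33.3%) and of 0 of the 14 mitochondrial members, and in 4.51% of all genes in the table. Among genes tested here the share was 2.69%, and among tested genes that were lower in knockdown it was 4.4%. The cytosolic members with the core were Gars, Iars, Tars and Yars, which fell, and Aars, which did not pass. Of the 8 cytosolic members that fell and had a window, 4 had the core, while Eprs, Mars, Qars and Sars had none. Cars, Lars, Nars, Rars, Vars and Wars, which also fell, had no matched window and were not searched. The fuller form TGATGCAAT, which contains that core, was present for 2 of the 15 cytosolic members (13.3%) and in 0.222% of all genes. The related core TGACGNCA was in no member's window and in 3.67% of all genes. A match describes the letters only, and binding was not measured. The last 200 bases of these windows, from 150 bases before the start to 50 after it, are shown for the cytosolic members that have the core, and for Yars2, a mitochondrial member that rose and has none. They read 5′ to 3′ along the gene, with the core or its reverse complement in capitals.
Gars, plus strand, chr6:55037851-55038050: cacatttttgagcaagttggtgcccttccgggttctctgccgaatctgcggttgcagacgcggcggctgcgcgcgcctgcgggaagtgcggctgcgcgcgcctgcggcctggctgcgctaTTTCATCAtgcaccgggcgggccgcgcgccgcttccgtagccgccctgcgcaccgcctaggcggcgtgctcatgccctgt
Iars, plus strand, chr13:49681980-49682179: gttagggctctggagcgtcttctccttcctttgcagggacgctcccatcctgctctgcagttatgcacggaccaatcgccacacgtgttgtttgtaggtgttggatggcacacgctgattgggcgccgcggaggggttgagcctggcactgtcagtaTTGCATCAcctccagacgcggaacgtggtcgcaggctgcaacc
Tars, minus strand, chr15:11399609-11399808: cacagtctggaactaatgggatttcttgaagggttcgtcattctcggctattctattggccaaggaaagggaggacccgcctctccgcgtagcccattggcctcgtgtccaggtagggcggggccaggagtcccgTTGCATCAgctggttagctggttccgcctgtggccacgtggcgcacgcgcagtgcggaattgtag
Yars, plus strand, chr4:129189753-129189952: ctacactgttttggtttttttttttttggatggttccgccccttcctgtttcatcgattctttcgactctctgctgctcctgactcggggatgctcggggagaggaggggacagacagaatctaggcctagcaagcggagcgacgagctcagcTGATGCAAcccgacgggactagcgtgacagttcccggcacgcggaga
Aars, plus strand, chr8:111033692-111033891: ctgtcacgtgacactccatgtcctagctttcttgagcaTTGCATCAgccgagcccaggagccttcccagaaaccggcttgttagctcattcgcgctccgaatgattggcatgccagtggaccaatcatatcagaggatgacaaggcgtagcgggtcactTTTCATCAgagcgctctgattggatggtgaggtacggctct
Yars2, plus strand, chr16:16302815-16303014: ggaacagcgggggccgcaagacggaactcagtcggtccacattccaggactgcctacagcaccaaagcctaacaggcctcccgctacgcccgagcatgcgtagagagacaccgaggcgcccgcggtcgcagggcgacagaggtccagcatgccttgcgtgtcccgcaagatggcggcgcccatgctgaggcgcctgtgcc

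The core began 30 bases before the start in Gars and 15 before it in Tars, and 7 and 3 bases after the first transcribed base in Iars and Yars. Aars had 2 matches, which began 112 bases before the start and 9 bases after the first transcribed base. Only Yars carried the core in the orientation of the gene, and the other matches were of its reverse complement.

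The 7 largest falls among the cytosolic members were all of genes outside the multisynthetase complex. Wars encodes the tryptophanyl enzyme and lies on chromosome 12 from 108860030 to 108894174 on the minus strand (GRCm38/mm10, GENCODE). It was at 45.7, 42.9 and 38.6 CPM in the knockdown libraries, against 83.02, 59.9, 83.3 and 79.5 CPM in the wild-type libraries. The knockdown mean was 55.5% of wild-type, the deepest fall in the family, and the groups did not overlap (log2 fold change -0.85, SE 0.11, adjusted p = 2.8e-07). One wild-type library, replicate 2, was well below the other wild-type libraries, and without it the log2 fold change was -0.95 (adjusted p = 5.48e-09). Sars, which encodes the seryl enzyme that also starts selenocysteine synthesis, was at 469, 461 and 440.4 CPM in the knockdown libraries, against 735, 728, 676 and 753 CPM in the wild-type libraries. All 3 knockdown values were far below the lowest wild-type value (log2 fold change -0.66, SE 0.060, adjusted p = 2.32e-10). Cars encodes the cysteinyl enzyme. Its level was 88.4, 81.5 and 79.04 CPM in the knockdown libraries, against 125, 137, 115 and 139 CPM in the wild-type libraries. The groups were again apart, with the knockdown mean at 64.3% of wild-type (log2 fold change -0.64, SE 0.083, adjusted p = 2.82e-07). Cars shares 211 exon bases with a pseudogene on the other strand, Gm15580, which was not analysed here.

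Nars encodes the asparaginyl enzyme and had the highest level per length of all 38 members. Its counts gave 846, 813 and 796 CPM in the knockdown libraries, against 1277, 1243, 1108 and 1222 CPM in the wild-type libraries. Each knockdown library was below each wild-type library by a wide margin (log2 fold change -0.57, SE 0.060, adjusted p = 4.9e-09). Yars, the tyrosyl enzyme gene whose promoter is shown above, was at 44.9, 44.8 and 53.4 CPM in the knockdown libraries, against 74.5, 70.3, 67.3 and 66.01 CPM in the wild-type libraries. Knockdown replicate 3 was the highest of the knockdown libraries and still below the lowest wild-type library (log2 fold change -0.54, SE 0.10, adjusted p = 7.79e-05). Yars shares 30 exon bases with C77080 on the other strand, which fell (log2 fold change -1.18, adjusted p = 2.78e-05), and the part of that overlap was not tested. Tars, for threonine, was at 241, 236 and 221 CPM in the knockdown libraries, against 333, 309, 316 and 323 CPM in the wild-type libraries. Spread within each group was small beside the gap between them (log2 fold change -0.46, SE 0.064, adjusted p = 9.1e-07). Gars encodes the glycyl enzyme of both the cytosol and mitochondria. Its level was 528, 505 and 496 CPM in the knockdown libraries, against 721, 713, 610.3 and 695 CPM in the wild-type libraries. Wild-type replicate 3 was the lowest of its group and was above every knockdown library (log2 fold change -0.43, SE 0.063, adjusted p = 2.76e-06). Vars, for valine, was the eighth gene outside the complex to fall, at 275, 266 and 251 CPM in the knockdown libraries, against 356, 312, 281 and 375 CPM in the wild-type libraries. Wild-type replicate 3 lay just above knockdown replicate 1, and the groups did not overlap (log2 fold change -0.33, SE 0.076, adjusted p = 0.00126).

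**Figure D2:**
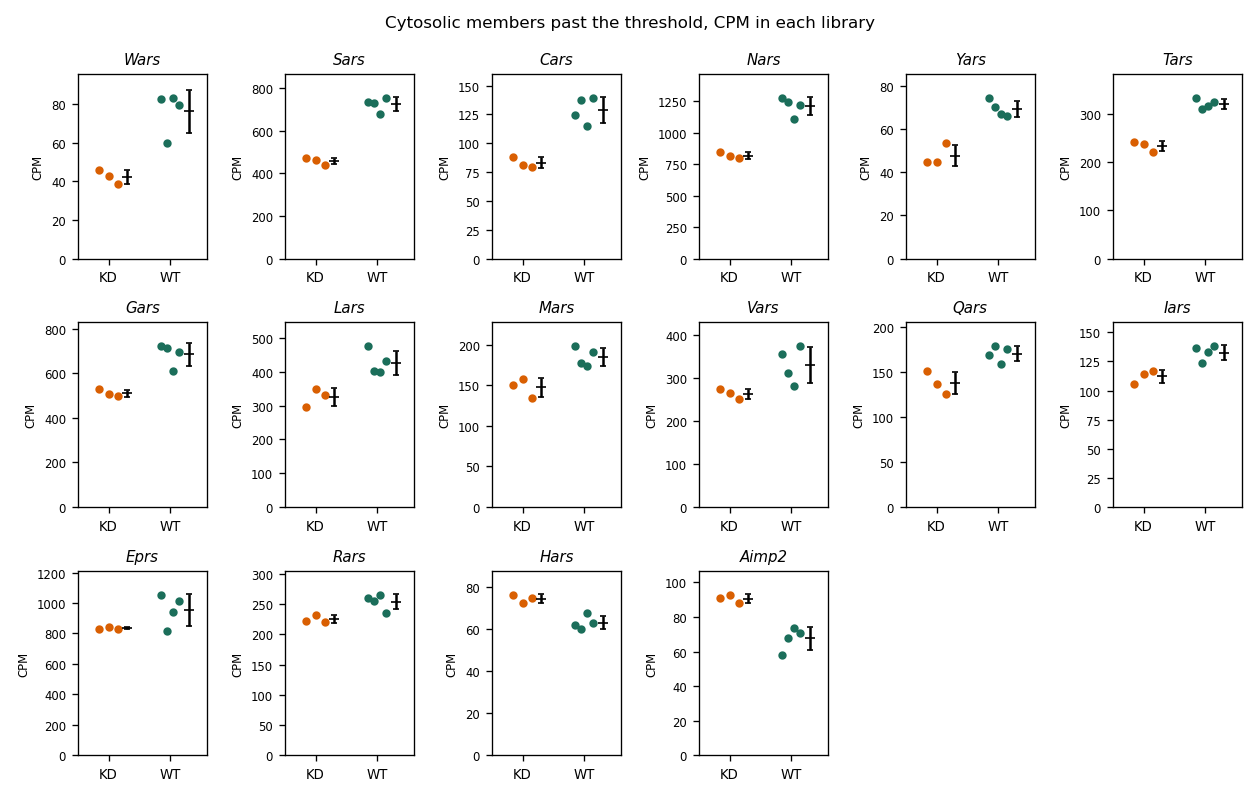
CPM in each library for the 16 cytosolic members past the threshold, knockdown (KD, orange, n = 3) left of wild-type (WT, green, n = 4), with the mean and SD in black and each axis starting at 0. Every knockdown library lies below every wild-type library in each of the genes that fell, Eprs aside, and in Hars and Aimp2 every knockdown library lies above.

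Of the 10 members of the multisynthetase complex, 6 fell, 1 rose and 3 did not pass. Their median log2 fold change was -0.21, against -0.44 over the 12 cytosolic members outside it, of which 8 fell, 1 rose and 3 did not pass. That difference between the sets is given as a description and was not tested. Lars, the leucyl enzyme, which also senses leucine for mTORC1, was at 296, 349 and 331 CPM in the knockdown libraries, against 476, 401, 399 and 433 CPM in the wild-type libraries. Its knockdown values all lay under the wild-type range (log2 fold change -0.39, SE 0.069, adjusted p = 3.79e-05). Mars encodes the methionyl enzyme, which also charges the initiator tRNA. It was at 150.1, 157 and 134 CPM in the knockdown libraries, against 198, 178, 174 and 191 CPM in the wild-type libraries. The groups did not overlap (log2 fold change -0.33, SE 0.074, adjusted p = 0.000731). Mars shares 68 exon bases with Ddit3 on the other strand, and Ddit3 was at 28.2, 28.2 and 25.9 CPM in the knockdown libraries, against 143, 132, 91.4 and 108 CPM in the wild-type libraries. With no stated strand setting, reads in that stretch cannot be assigned to either gene, and the part of Ddit3 in the value of Mars was not tested. Qars, the glutaminyl enzyme, was at 151, 137 and 126 CPM in the knockdown libraries, against 169, 179, 159.5 and 176 CPM in the wild-type libraries. All of its knockdown libraries were lower than all wild-type libraries (log2 fold change -0.31, SE 0.075, adjusted p = 0.00183).

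Iars, Eprs and Rars fell by less, and their calls depended on single libraries. Iars, for isoleucine, was at 106, 115 and 116 CPM in the knockdown libraries, against 136, 123, 133 and 138 CPM in the wild-type libraries. The groups did not overlap (log2 fold change -0.24, SE 0.076, adjusted p = 0.0151), and the call was lost without knockdown replicate 1 (adjusted p = 0.0957). A processed pseudogene, Gm4849, matches 1656 bases of an Iars transcript at 96.0% identity, so its count is less certain. Eprs, whose product joins the glutamyl and prolyl enzymes in 1 chain, was at 832, 841 and 831 CPM in the knockdown libraries, against 1054, 815, 939 and 1012 CPM in the wild-type libraries. Wild-type replicate 2 was below all 3 knockdown libraries, so the groups overlapped (log2 fold change -0.20, SE 0.067, adjusted p = 0.0255). The Eprs call was lost without wild-type replicate 1 or 4 and without any 1 of the knockdown libraries (adjusted p from 0.0723 to 0.117). Rars, for arginine, was at 222, 232 and 221 CPM in the knockdown libraries, against 259.7, 255, 265 and 236 CPM in the wild-type libraries. The groups did not overlap, with wild-type replicate 4 closest to the knockdown libraries (log2 fold change -0.18, SE 0.066, adjusted p = 0.0419). Its call was lost with no low-count filter, without wild-type replicate 1 or 3 and without any 1 of the knockdown libraries (adjusted p from 0.0569 to 0.149).

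Aimp2, which encodes a scaffold of the complex, rose, while its fellow scaffold gene Aimp1 did not pass. Aimp2 lies on chromosome 5 from 143902704 to 143909847 on the minus strand. It was at 91.1, 92.9 and 87.9 CPM in the knockdown libraries, against 58.3, 67.9, 73.6 and 70.6 CPM in the wild-type libraries. Every knockdown library was above every wild-type library, and the knockdown mean was 134% of wild-type (log2 fold change 0.42, SE 0.091, adjusted p = 0.000454). It shares 487 exon bases with Eif2ak1 on the other strand, and Eif2ak1 did not pass (log2 fold change 0.048, adjusted p = 0.784). Aimp1 was at 262, 263 and 266 CPM in the knockdown libraries, against 295, 295, 297 and 291 CPM in the wild-type libraries. The groups did not overlap, but the value was on the edge of the threshold (log2 fold change -0.16, SE 0.062, adjusted p = 0.05003). It passed as lower in 6 of the alternatives, with upper-quartile factors, the stricter filter, DESeq2, limma-voom, Rn45s removed or wild-type replicate 2 left out (adjusted p from 0.0144 to 0.0477). It shares 163 exon bases with Tbck on the other strand, and Tbck did not pass. Dars, for aspartate, was at 90.6, 82.8 and 87.6 CPM in the knockdown libraries, against 82.5, 100.1, 109.8 and 113 CPM in the wild-type libraries. Wild-type replicate 1 lay among the knockdown libraries, and the gene did not pass (log2 fold change -0.22, SE 0.092, adjusted p = 0.0688), but it did so without that library (adjusted p = 0.00583 at a log2 fold change of -0.31).

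Hars, the histidyl enzyme, was the other cytosolic gene to rise, at 76.5, 72.4 and 75.2 CPM in the knockdown libraries, against 61.9, 60.2, 67.7 and 62.9 CPM in the wild-type libraries. The groups did not overlap (log2 fold change 0.24, SE 0.091, adjusted p = 0.042). This call was lost with no low-count filter, without wild-type replicate 1, 2 or 4 and without any 1 of the knockdown libraries (adjusted p from 0.0593 to 0.131). Hars shares 195 exon bases with Hars2 on the other strand, and Hars2 did not pass. The remaining cytosolic members were Aars, Farsa, Farsb and Kars, for alanine, both phenylalanine subunits and lysine, with log2 fold changes of -0.037 to 0.13 and adjusted p from 0.16 to 0.971. Aars, which has the Atf4 core at its start and whose values were chosen for display after they were seen, was at 174, 180.5 and 176 CPM in the knockdown libraries, against 202, 184, 157 and 179 CPM in the wild-type libraries. The groups overlapped. It shares 1326 exon bases on its own strand with Exosc6, which rose (log2 fold change 0.36, adjusted p = 0.00079), and the part of that overlap in the value of Aars was not tested.

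By catalytic class, all 9 cytosolic genes of class I fell, namely Cars, Iars, Lars, Mars, Qars, Rars, Vars, Wars and Yars, with a median log2 fold change of -0.33, although the calls of Iars and Rars were lost in the alternatives named above. Of the 10 of class II, 4 fell (Gars, Nars, Sars and Tars), 1 rose (Hars) and 5 did not pass, with a median of -0.13. Eprs spans both classes and was counted in neither. In the mitochondrial set, 1 of 9 class I genes fell and 3 rose, while 1 of 7 class II genes rose and the other 6 did not pass. The groups' ranges did not overlap, with knockdown lower, for 14 of 22 cytosolic and 2 of 16 mitochondrial members, against 17.6% of all tested genes. With knockdown higher they did not overlap for 2 cytosolic and 4 mitochondrial members, against 17.5%. Without overlap in either direction there were 35.1% of all tested genes, and the mitochondrial share was near that.

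The mitochondrial genes were far less abundant. Per kilobase of merged exons, the wild-type means of the cytosolic members ran from 11.7 CPM in Yars to 278 CPM in Nars, with a median of 52.7 CPM per kilobase. Those of the mitochondrial members ran from 0.626 CPM per kilobase in Mars2 to 18.1 in Iars2, with a median of 2.50. These levels depend on the annotated exon lengths, which were not checked against the transcripts made in these cells. Mars2 has 11294 merged bases, and before division its wild-type mean of 7.07 CPM was above those of Nars2 (4.54), Pars2 (2.93) and Sars2 (3.26). In knockdown the medians were 44.5 CPM per kilobase over the cytosolic and 2.34 over the mitochondrial members. Nars, Gars and Sars led the cytosolic order in both groups, at 188, 163 and 88.9 CPM per kilobase in knockdown and 278, 219.6 and 141 in wild-type. Lars, at 60.6 CPM per kilobase in knockdown and 79.6 in wild-type, and Rars, at 69.7 in knockdown and 78.7 in wild-type, came next in the wild-type order, and their wild-type libraries overlapped, so that the order of this pair is not settled. Iars2 and Yars2 led the mitochondrial order in both groups. Raw counts of the mitochondrial members were as low as 16 in a library, against a lowest count of 593 for the cytosolic members. The SE of the log2 fold change ran from 0.072 to 0.46 for the mitochondrial and from 0.060 to 0.11 for the cytosolic members.

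**Figure D3:**
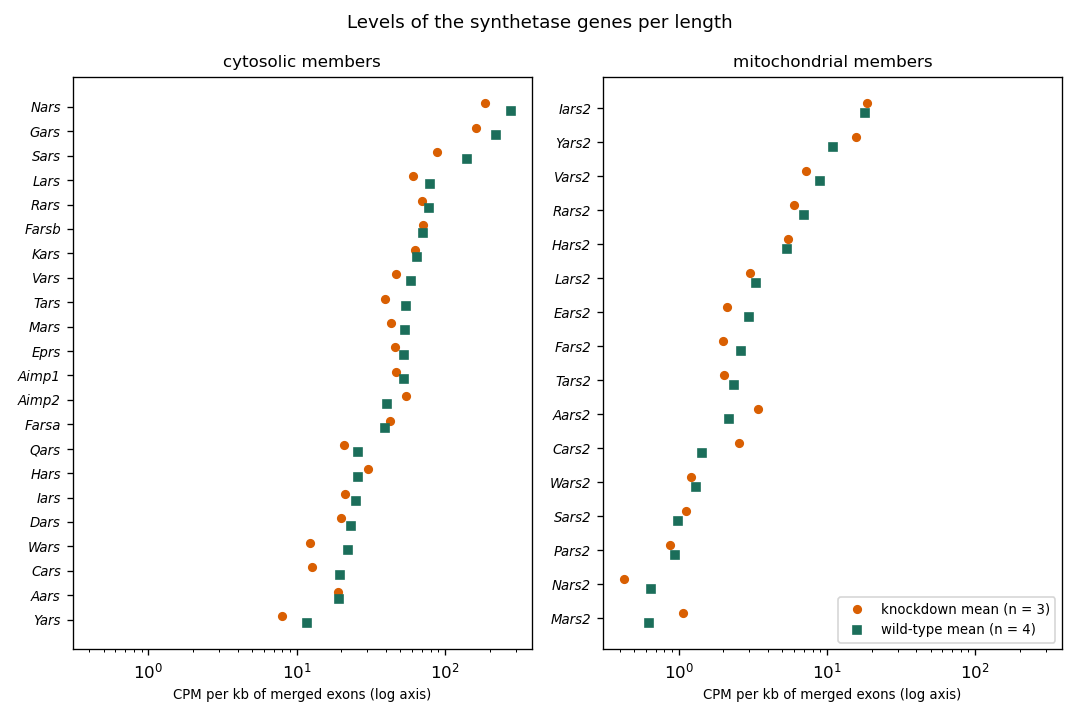
Mean level of each member in CPM per kilobase of merged exons, on a log axis shared by both panels, for knockdown (orange circles, n = 3) and wild-type (green squares, n = 4), ordered by the wild-type level. The wild-type medians are 52.7 for the cytosolic and 2.50 for the mitochondrial members, and most cytosolic circles lie left of their squares.

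Among the mitochondrial members, Cars2, Mars2, Aars2 and Yars2 rose. Cars2, the mitochondrial cysteinyl enzyme, lies on chromosome 8 from 11513977 to 11550783 on the minus strand and was at 19.2, 18.8 and 17.4 CPM in the knockdown libraries, against 11.4, 6.52, 10.98 and 12.4 CPM in the wild-type libraries. Wild-type replicate 2 was the lowest library, and no wild-type library reached the knockdown range (log2 fold change 0.84, SE 0.20, adjusted p = 0.00129). Cars2 shares 422 exon bases with Naxd on the other strand, which the table lists under its older symbol Carkd and which fell (log2 fold change -0.44, adjusted p = 0.0457), and the part of that overlap was not tested. Mars2 encodes the mitochondrial methionyl enzyme. Its level was 10.02, 13.2 and 12.9 CPM in the knockdown libraries, against 8.07, 7.47, 7.84 and 4.91 CPM in the wild-type libraries. The groups were apart (log2 fold change 0.77, SE 0.23, adjusted p = 0.00942), but the call was lost without knockdown replicate 2 or 3 (adjusted p = 0.0606 and 0.0513). Aars2, for alanine, was at 19.1, 12.8 and 17.4 CPM in the knockdown libraries, against 8.88, 10.8, 10.8 and 11.1 CPM in the wild-type libraries. Knockdown replicate 2 was the lowest of its group and above every wild-type library (log2 fold change 0.66, SE 0.19, adjusted p = 0.00851). Without knockdown replicate 1 the call was lost (log2 fold change 0.54, adjusted p = 0.0826). Yars2, the mitochondrial tyrosyl enzyme, was the most abundant of the 4, at 48.1, 51.02 and 49.8 CPM in the knockdown libraries, against 33.4, 33.5, 36.99 and 35.5 CPM in the wild-type libraries. Its groups were tight and well apart (log2 fold change 0.51, SE 0.11, adjusted p = 0.000574).

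**Figure D4:**
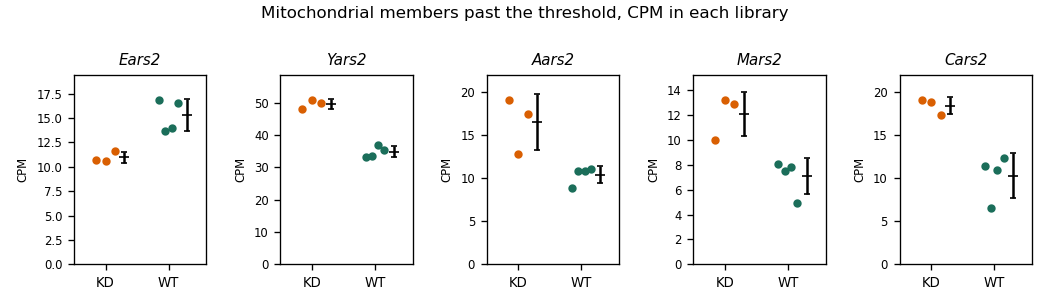
CPM in each library for the 5 mitochondrial members past the threshold, knockdown (KD, orange, n = 3) left of wild-type (WT, green, n = 4), with the mean and SD in black and each axis starting at 0. Ears2 lies at 10.6 to 11.6 CPM in knockdown and 13.7 to 16.9 CPM in wild-type, and the other 4 genes are higher in every knockdown library than in any wild-type library.

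Ears2, which encodes the mitochondrial glutamyl enzyme, was the only mitochondrial member to fall, at 10.7, 10.6 and 11.6 CPM in the knockdown libraries, against 16.9, 13.7, 13.99 and 16.5 CPM in the wild-type libraries. The groups did not overlap (log2 fold change -0.48, SE 0.19, adjusted p = 0.0489). The call was lost with no low-count filter, without wild-type replicate 1 or 4 and without any 1 of the knockdown libraries (adjusted p from 0.0689 to 0.141). Ears2 shares 89 exon bases with Ubfd1 on the other strand, and Ubfd1 did not pass. In mitochondria this enzyme also loads glutamate on the glutamine tRNA, which an amidotransferase then converts. Of the genes of that amidotransferase, Qrsl1 rose, at 17.2, 16.3 and 20.1 CPM in the knockdown libraries, against 12.5, 9.101, 11.2 and 10.2 CPM in the wild-type libraries (log2 fold change 0.73, SE 0.18, adjusted p = 0.00236). The other subunit genes, Gatb and Gatc, were named after their values were seen, with log2 fold changes of -0.024 and -0.085 (adjusted p = 0.961 and 0.693), and neither passed. Vars2, for valine, was at 43.3, 43.5 and 31.03 CPM in the knockdown libraries, against 38.3, 53.99, 48.4 and 54.3 CPM in the wild-type libraries. Wild-type replicate 1 lay within the knockdown range, and the gene did not pass (log2 fold change -0.31, SE 0.13, adjusted p = 0.0743). It passed as lower when wild-type replicate 1 was left out (adjusted p = 0.0143 at a log2 fold change of -0.41) and with no low-count filter (adjusted p = 0.0449), while its log2 fold change was -0.17 (adjusted p = 0.438) without knockdown replicate 3. It shares 465 exon bases with the antisense transcript Gm20483, which was not analysed here. Fars2, for phenylalanine, was at 11.5, 11.5 and 11.3 CPM in the knockdown libraries, against 18.5, 13.2, 15.2 and 13.8 CPM in the wild-type libraries. All 3 knockdown values were below the wild-type range, and the test did not pass (log2 fold change -0.41, SE 0.19, adjusted p = 0.0982). It shares 501 exon bases on the other strand with Nrn1, which fell (log2 fold change -0.42, adjusted p = 0.00219). The other 9 mitochondrial members were Hars2, Iars2, Lars2, Nars2, Pars2, Rars2, Sars2, Tars2 and Wars2, whose log2 fold changes were -0.61 to 0.18 with adjusted p from 0.267 to 0.968. Nars2, picked here as the lowest of these folds, was at 4.42, 3.26 and 1.24 CPM in the knockdown libraries, against 4.63, 5.64, 2.75 and 5.15 CPM in the wild-type libraries, so the groups overlapped at a few CPM. Its log2 fold change was -0.25 without knockdown replicate 3 and -1.002 without knockdown replicate 1. Nars2 shares 284 exon bases with C230038L03Rik on the other strand, which was not analysed here.

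Each mitochondrial member was set beside the cytosolic gene for the same amino acid, which gave 16 pairs, with Eprs used for both Ears2 and Pars2 and Farsa for Fars2. In 3 pairs the cytosolic gene fell and the mitochondrial gene rose, namely Cars with Cars2, Mars with Mars2 and Yars with Yars2. In 1 pair, Eprs with Ears2, both fell, and in 9 pairs the cytosolic gene fell and the mitochondrial gene did not pass. The cytosolic fold change was below the mitochondrial one in 11 of the 16 pairs. Per kilobase, the ratio of Yars to Yars2 was 0.495, 0.466 and 0.568 in the knockdown libraries, against 1.18, 1.11, 0.963 and 0.986 in the wild-type libraries. For Cars and Cars2 the ratio was 5.08, 4.76 and 5.003 in knockdown, against 12.03, 23.1, 11.5 and 12.4 in wild-type. The ratio of Mars to Mars2 was 49.4, 39.1 and 34.4 in knockdown, against 80.9, 78.4, 73.2 and 128 in wild-type. These 3 pairs were picked by the calls of their genes, so a lower ratio follows from the choice. Over all 16 pairs, the groups' ratios did not overlap and were lower in knockdown in 6 and higher in 2, and they overlapped in 8. The 6 lower ones include the 3 pairs above, and no such share over other pairs of genes is given here. The 2 higher ones were Eprs with Ears2, at 22.04, 22.6 and 20.4 in knockdown, against 17.8, 16.9, 19.1 and 17.4 in wild-type, and Farsa with Fars2, at 22.2, 20.4 and 22.2 in knockdown, against 12.9, 16.5, 14.8 and 15.9 in wild-type. The ratios were not tested.

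**Figure D5:**
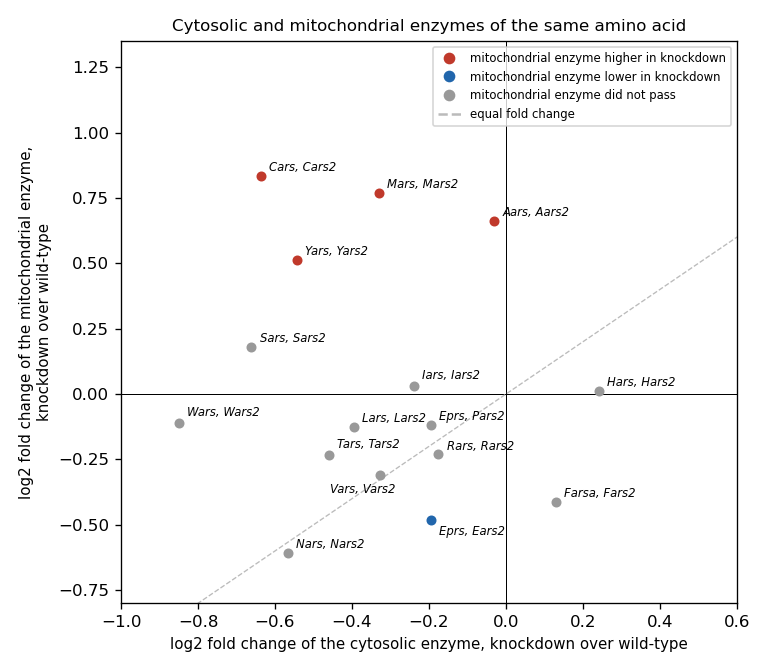
Log2 fold change of the mitochondrial gene against that of the cytosolic gene for the same amino acid, knockdown over wild-type, 1 point a pair (16 pairs), coloured by the call of the mitochondrial gene, with a dashed line at equal fold change. The pairs of Cars, Mars and Yars lie at the upper left, where the cytosolic gene fell and the mitochondrial gene rose.

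Of 22 further genes of tRNA charging and delivery, 5 rose, 2 fell and 15 did not pass, with a median log2 fold change of -0.051. That is 7 of 22 past the threshold, a share near the 29.4% of all tested genes. The rises were led by Ptrhd1, a putative peptidyl-tRNA hydrolase (0.81, adjusted p = 0.00023), Qrsl1 above and Mtfmt, the mitochondrial formylase of the initiator methionine tRNA (0.48, adjusted p = 0.0494). Ptrh2, another peptidyl-tRNA hydrolase, fell (-0.50, adjusted p = 0.000239). The other gene that fell, Eef1a1, was the most abundant of the list and was named after its values were seen. Its means were 2489 CPM in knockdown and 3364 CPM in wild-type, and the groups did not overlap (-0.43, adjusted p = 2.79e-07). Eef1e1, the remaining scaffold of the complex, was named after its values were seen and did not pass (log2 fold change -0.28, adjusted p = 0.139).

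The 10 listed genes of uncharged tRNA sensing and of the Atf4 response were all in the table. Of these, 6 were lower, 1 was higher and 3 did not pass, where 15.3% of all tested genes were lower and 14.1% higher. Atf4 was at 1274, 1110.3 and 1056 CPM in the knockdown libraries, against 1928, 2023, 1673 and 1854 CPM in the wild-type libraries. No knockdown library came near the wild-type range (log2 fold change -0.71, SE 0.067, adjusted p = 5.82e-10). The kinase gene Eif2ak4 did not pass (0.19, adjusted p = 0.25). Trib3, a pseudokinase (-2.15), Ddit3, a stress transcription factor (-2.11), Chac1, a glutathione-degrading enzyme (-1.33), and Sesn2, a leucine-binding inhibitor of mTORC1 (-1.17), had the largest falls. The gene that rose was Impact, which encodes an inhibitor of the activation of the Eif2ak4 kinase and was named after its values were seen. It was at 27.98, 34.1 and 29.4 CPM in the knockdown libraries, against 17.1, 15.7, 14.4 and 13.2 CPM in the wild-type libraries. The groups were apart (log2 fold change 1.01, SE 0.15, adjusted p = 2.97e-06). Asns, the asparagine synthetase gene, was named after its values were seen and was at 152, 179.6 and 154 CPM in the knockdown libraries, against 378, 356, 302 and 362 CPM in the wild-type libraries. Its fall (-1.11, SE 0.076, adjusted p = 5.41e-13) was deeper than that of Nars, the gene that loads asparagine (-0.57), and the difference between these folds was not tested. This list was chosen with the falls of several of its genes already known, so its count is not independent evidence. Atf4 was thus lower in the same 3 libraries in which 14 cytosolic members fell, and the part of Atf4 in their levels was not tested.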

How the data were processed

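Polyadenylated RNA of cultured LLC1 cells was sequenced in 7 libraries, 3 of Ddx54 knockdown and 4 of wild-type cells. The deposited table holds the authors' raw read counts for 24419 gene symbols, and 0 further sample columns. Trimmomatic, STAR, HTSeq and mm10 are listed without roles or versions per the submitters' processing notes. Which annotation and strand setting the counting used is not given in the sources used here, so reads over antisense gene pairs cannot be assigned to 1 strand. A single-cell part of the series was not analysed here.

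The filterByExpr function of edgeR 4.0.16 (R 4.3.3) kept 11594 genes, which were scaled by TMM and tested with the robust quasi-likelihood test, with Benjamini-Hochberg adjustment over all of them at 0.05. Log2 fold changes are knockdown over wild-type. Their SE, an approximation, is the size of the fold change over the square root of F. The script was tested on simulated data. Libraries of the same group all differed by more than sampling noise (chi-square per degree of freedom 8.31 to 16.3).

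Positions and merged exon lengths were read from GENCODE for GRCm38 (mm10), and promoters from RefSeq on GRCm38.p6, matched by symbol (Mars, and Naxd among overlapping genes, through synonyms). Near-identical copies are BLAST 2.17.0 matches of at least 95% identity over at least 200 bases.

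All members are named. Library values are given for members past the threshold and for the 2 nearest to it in each compartment, and up to 4 genes past the threshold are named from each other list, besides Ddx54, Atf4 and Eif2ak4. Names outside this rule are marked as such. The members and lists were chosen with earlier results of these data known. As alternatives, scaling used upper-quartile or RLE factors, the filter was dropped or raised to 50 counts in 3 libraries, and the test was DESeq2 1.42.0 or voom of limma 3.58.1. Other alternatives removed Rn45s, left out each library in turn, or added a block for the replicate number.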

Additional observations from a re-analysis of the deposited data

Results flagged for a closer look

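In 43 groups of 4 wild-type values searched, 2 had 1 library far from the other 3, where chance gives 2.15. Wars was at 59.9 CPM in wild-type replicate 2, against 79.5 to 83.3 CPM in the other wild-type libraries, and this low library lies on the side of the knockdown values. Aars2 was at 8.88 CPM in wild-type replicate 1, against 10.8 to 11.1 CPM in the other wild-type libraries, and this low library lies on the side away from the knockdown values.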

How the results depend on the processing

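Of the 21 members past the threshold, 14 kept their call in all 15 alternatives and 7 lost it in at least 1. Of the 14 cytosolic falls, 11 were kept in every alternative. The number of cytosolic members that rose was 1 with no low-count filter. Leaving out each library in turn gave 11 to 15 cytosolic members lower and 1 to 2 higher, with a median log2 fold change of -0.29 to -0.24. It gave 0 to 1 mitochondrial members lower and 3 to 4 higher, with a median of -0.19 to 0.049, the last without wild-type replicate 1. Over all tested genes it gave 1409 to 1700 lower and 1222 to 1604 higher. The motif TGACGNCA was present in 0% of cytosolic members.

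Same-numbered libraries did not deviate together (correlations -0.034 to -0.0063), so the numbers do not pair the samples. With the replicate number as a block, 12 cytosolic members were lower and 1 higher, and 0 mitochondrial members were lower and 3 higher, with a mitochondrial median of -0.19. The calls of Iars (adjusted p = 0.0688), Eprs (0.119), Hars (0.0947), Ears2 (0.131) and Mars2 (0.0690, each edgeR) were not made in that fit. In that fit 1487 of all genes were lower and 1375 higher.

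Signs turned in these genes, which did not pass in either fit. Farsb was at -0.0021 with upper-quartile factors and Hars2 at -0.14 with the block. When libraries were left out, Aars ran from -0.095 to 0.025, Farsb from -0.028 to 0.066, Hars2 from -0.13 to 0.12, Iars2 from -0.017 to 0.059, Kars from -0.076 to 0.0015, Pars2 from -0.61 to 0.26, Sars2 from -0.26 to 0.48 and Wars2 from -0.26 to 0.059. The cause of these changes was not tested. The lowest count of a mitochondrial member in a library was 16, and that of a cytosolic member was 593.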
